A study of Mus musculus with 9 samples.

Results

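The C-type lectin receptors of myeloid cells examined here are 8 genes, 7 encoding receptors (Clec4d, Clec4e, Clec4n, Clec4a2, Clec7a, Clec5a and Clec12a) and 1 encoding the adaptor protein Card9. They were chosen by name, through the platform annotation, as probe sets assigned to that single gene. Of the 8 genes, 6 had such a probe set, out of 18193 genes with one in all. Clec12a and Card9 were not analysed here. The measurements come from 9 Affymetrix mouse expression arrays, 3 for each of 3 sorted marrow populations. The donors were normal C57BL/6 mice of either sex, 4 to 10 weeks old. Neutrophils, described in the labels as mature, were sorted as Gr1+ Mac1+ cells without c-kit. MAC1+ myeloblasts were c-kit+ Gr1+ Mac1+, and MAC1- myeloblasts were c-kit+ Gr1+ with low or no Mac1. Both c-kit+ populations were also sorted for the absence of B220, TER119, CD3, CD4, CD8 and IL7Rα, and by cytology the labels describe them as undifferentiated cells or myeloblasts. All groups are of normal marrow, no agent or engineered allele is named, and the labels do not say whether replicate arrays came from separate animals.

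C-type lectin receptors let neutrophils, monocytes and macrophages recognise sugars and lipids of fungi and mycobacteria. Dectin-1 (Clec7a) binds β-glucan of fungal walls and signals through its own cytoplasmic tail. Mincle (Clec4e), its partner MCL (Clec4d) and Dectin-2 (Clec4n) borrow the immunoreceptor tyrosine-based activation motif (ITAM) of the Fc receptor γ chain, encoded by Fcer1g. MDL-1 (Clec5a) pairs instead with the adaptors DAP12 (Tyrobp) and DAP10 (Hcst). Activating receptors of this kind recruit the kinase Syk, which passes the signal through Card9, Bcl10 and Malt1 to NF-κB and so to cytokine genes. DCIR (Clec4a2) has an inhibitory motif (ITIM) that recruits the phosphatases SHP-1 (Ptpn6) and SHP-2 (Ptpn11).

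All 7 receptor genes lie on mouse chromosome 6 in the RefSeq annotation of GRCm38.p6, and Card9 lies on chromosome 2. Clec4n, Clec4d and Clec4e are direct neighbours, Clec4a2 lies between Clec4b1 and Clec4b2, and Clec7a lies between Clec1a and Olr1. The 250 bases before the annotated start are shown for 5 of the measured genes, one or more for each pattern described below, so that the promoters of receptors that differed between the populations can be set side by side. They are RefSeq sequence, printed 5′ to 3′ on the gene's own strand, each ending at the base before an annotated start. Clec4d is at chr6:123261857-123262106 on the plus strand and Clec4e at chr6:123289872-123290121 on the minus strand. Clec7a is at chr6:129472780-129473029 on the minus strand, Clec4a2 at chr6:123122440-123122689 on the plus strand and Clec5a at chr6:40585806-40586055 on the minus strand. Capitals mark matches to any of 5 motifs searched on both strands.
Clec4d: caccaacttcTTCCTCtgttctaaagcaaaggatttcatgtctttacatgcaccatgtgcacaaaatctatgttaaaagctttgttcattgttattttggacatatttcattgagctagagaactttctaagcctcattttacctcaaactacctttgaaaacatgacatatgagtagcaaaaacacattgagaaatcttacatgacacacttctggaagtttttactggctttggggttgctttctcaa
Clec4e: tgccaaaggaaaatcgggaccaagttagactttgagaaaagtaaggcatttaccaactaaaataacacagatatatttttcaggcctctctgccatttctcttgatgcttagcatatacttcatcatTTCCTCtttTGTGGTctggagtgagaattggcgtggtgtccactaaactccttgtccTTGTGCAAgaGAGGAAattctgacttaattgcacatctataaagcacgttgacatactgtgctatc
Clec7a: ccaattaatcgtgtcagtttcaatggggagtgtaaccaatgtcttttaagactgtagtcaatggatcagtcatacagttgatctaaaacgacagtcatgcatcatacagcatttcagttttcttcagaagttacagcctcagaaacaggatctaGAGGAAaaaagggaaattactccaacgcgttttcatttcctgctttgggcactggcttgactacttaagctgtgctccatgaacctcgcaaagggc
Clec4a2: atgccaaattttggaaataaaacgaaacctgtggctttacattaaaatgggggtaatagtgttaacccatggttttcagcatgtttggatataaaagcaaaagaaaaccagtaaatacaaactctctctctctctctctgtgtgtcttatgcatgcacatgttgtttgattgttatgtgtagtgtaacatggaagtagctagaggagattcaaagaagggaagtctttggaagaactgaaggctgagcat
Clec5a: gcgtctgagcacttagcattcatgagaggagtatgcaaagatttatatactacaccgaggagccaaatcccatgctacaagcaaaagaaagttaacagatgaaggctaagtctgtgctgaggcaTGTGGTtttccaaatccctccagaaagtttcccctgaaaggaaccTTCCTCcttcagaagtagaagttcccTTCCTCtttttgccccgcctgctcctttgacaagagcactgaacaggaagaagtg
The motifs were the PU.1 (ETS) core GAGGAA, the C/EBP motif TTGCNNAA, the RUNX motif TGTGGT, the NF-κB motif GGGA followed by any 2 bases and TTCC, and the AP-1 motif TGANTCA. Of 32851 promoter windows of that length, 23.3% held the PU.1 core, 9.56% the C/EBP motif, 14.0% the RUNX motif, 1.21% the NF-κB motif and 6.75% the AP-1 motif. The Clec4e window held the PU.1 core at 123 to 118 and at 56 to 51 bases before the start, the RUNX motif at 114 to 109 and the C/EBP motif at 66 to 59. In the Clec5a window the PU.1 core lay at 81 to 76 and 55 to 50 bases before the start and the RUNX motif at 126 to 121. The Clec7a window held the PU.1 core at 96 to 91 bases. RefSeq gives Clec7a another start slightly upstream, inside the printed window, before which the core lies at 90 to 85 bases. Further, the Clec4d window held it at 240 to 235 bases. The letters of none of the 5 motifs occur in the Clec4a2 window. None of the matches overlapped another, and a match in letters describes the sequence only.

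Values are intensities in arbitrary units as deposited. Mean intensity per array lay between 549.4 and 727.4 and the median between 39.1 and 61.8. Neutrophil array 1 stood apart from neutrophil arrays 2 and 3 on the second principal component of all genes, at 64.5 against -23.1 and -37.3, and its Gapdh 3′ to 5′ ratio was 2.70 while the other 8 arrays lay between 1.92 and 2.47. The Actb 3′ to 5′ ratio, another sign of RNA quality or amplification, was 1.55, 1.52 and 1.84 in neutrophils, 1.66, 1.87 and 2.17 in MAC1+ myeloblasts and 2.49, 2.22 and 2.17 in MAC1- myeloblasts, so it moved with the populations, and its part in the results was not tested. The receptor results on neutrophils are also given without neutrophil array 1. Of 56 neutrophil differences recomputed without it, 56 kept their call, with a largest move of 0.72 on the log2 scale. They were only differences of named list genes already called in the fit of all arrays, so a gained call could not enter. Some counts for whole lists did move, as given below. Kit, which encodes c-kit, had 94.9, 295 and 331 in neutrophils, 3336, 3176 and 3470 in MAC1+ myeloblasts and 2998, 3217 and 3228 in MAC1- myeloblasts. Itgam, which encodes the Mac1 α chain, had 2027, 3553 and 3675 in neutrophils, 920, 823 and 695 in MAC1+ myeloblasts and 74.1, 69.2 and 71.7 in MAC1- myeloblasts. The summed intensity of 12 neutrophil markers was 135265 to 155423 in neutrophils, 98418 to 110849 in MAC1+ myeloblasts and 16614 to 20654 in MAC1- myeloblasts.

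The comparisons ask how receptor transcripts differ between mature neutrophils and 2 kinds of myeloblast, and between those 2 kinds. Neutrophils had more transcript of 4 of the 6 measured receptor genes than MAC1+ myeloblasts, namely Clec4n, Clec7a at 10.3 times the intensity, Clec4e at 21.1 times and Clec4d at 49.8 times. None was lower, at an adjusted or an unadjusted p under 0.05, and Clec4a2 and Clec5a did not pass the test. In that comparison 48.1% of all genes were called, 19.7% as higher and 28.4% as lower, at an adjusted p under 0.05 (limma, Benjamini-Hochberg over 18193 genes). Against MAC1- myeloblasts all 6 measured genes were higher in neutrophils, from 2.06 times for Clec5a to 25.3 times for Clec4d. There 52.6% of all genes were called, 22.6% as higher and 30% as lower. Between the myeloblast populations, where 11.8% of all genes were called, the receptors divided. Clec4a2 and Clec5a were higher in MAC1+ than in MAC1- myeloblasts, where 6.31% of all genes were higher, and Clec7a and Clec4d were lower, where 5.51% were lower. The 3 comparisons share arrays, so their counts are not independent. In RNA of whole populations, fewer cells that express a gene and less of its RNA per cell cannot be told apart. The counts of 4, 6, 2 and 2 were the same without neutrophil array 1. Over all genes, that fit called 2191 higher and 1987 lower for MAC1+ against MAC1- myeloblasts, where the fit of all arrays called 1148 and 1003. Folds are those of intensity + 16, so that where a population lies near or below the array medians the fold depends on the offset, and the log2 difference is given instead.

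**Figure D1:**
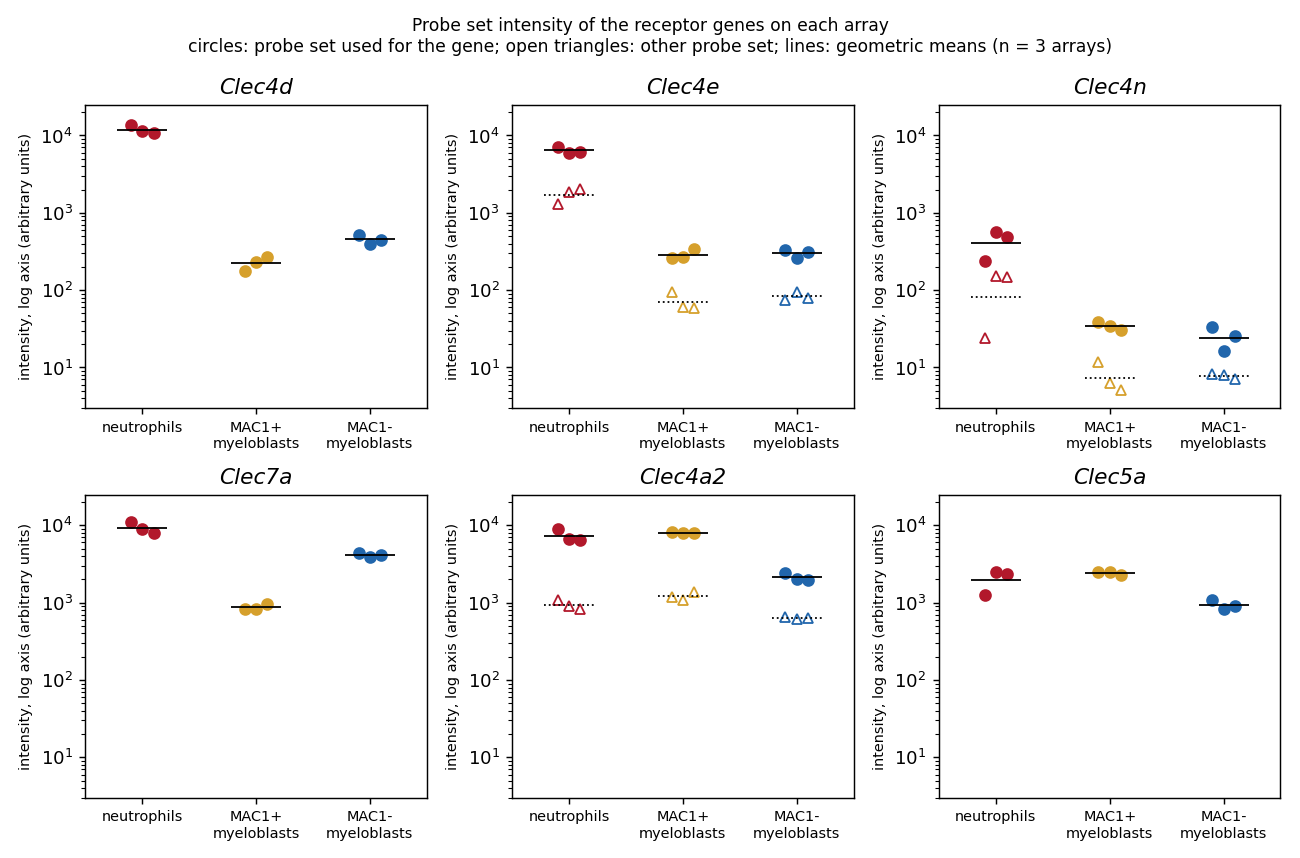
Intensity (arbitrary units, log axis) of each measured receptor gene on each array, with neutrophils at the left, MAC1+ myeloblasts in the middle and MAC1- myeloblasts at the right of each panel. Circles are the probe set used for the gene, open triangles its other probe set where one exists, and lines are geometric means of 3 arrays. Clec4d, Clec4e, Clec4n and Clec7a were highest on all 3 neutrophil arrays, and Clec4a2 was lowest on all 3 arrays of MAC1- myeloblasts.

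Clec4d (probe set 1420804_s_at), the MCL receptor that forms a complex with Mincle, had intensities of 13499, 11295 and 10922 in neutrophils. It had 177, 232 and 268 in MAC1+ myeloblasts and 515, 398 and 451 in MAC1- myeloblasts. The 3 populations did not overlap, with neutrophils highest and MAC1+ myeloblasts lowest. On the log2(intensity + 16) scale, on which every test was made, neutrophils exceeded MAC1+ myeloblasts by 5.64 ± 0.19 (SE, 3 arrays each, limma adjusted p = 5.82e-08), or 49.8-fold. They exceeded MAC1- myeloblasts by 4.66 ± 0.19 (limma adjusted p = 8.76e-08), or 25.3-fold. These differences were 5.54 and 4.57 without neutrophil array 1. The difference between MAC1+ and MAC1- myeloblasts was -0.97 ± 0.19 (limma adjusted p = 0.00914), a 1.96-fold lower intensity in MAC1+ myeloblasts. That lower level passed the test without any one of the 9 arrays, at adjusted p of 0.0035 to 0.0458.

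Clec4e encodes Mincle, the receptor for mycobacterial cord factor, and was measured by a pair of probe sets. The probe set used (1420330_at) had 7172, 5966 and 6107 in neutrophils, 257, 270 and 341 in MAC1+ myeloblasts and 335, 262 and 308 in MAC1- myeloblasts. The other probe set (1420331_at) had 1284, 1875 and 2024 in neutrophils, 93.8, 61 and 58.5 in MAC1+ myeloblasts and 74.5, 96 and 79.9 in MAC1- myeloblasts. Both separated neutrophils from both myeloblast populations, which overlapped each other. Neutrophils exceeded MAC1+ myeloblasts by 4.40 ± 0.17 (limma adjusted p = 1.12e-07), or 21.1-fold, and MAC1- myeloblasts by 4.34 ± 0.17 (limma adjusted p = 7.13e-08), or 20.3-fold. On the other probe set the same differences were 20 and 17.3-fold. Leaving out neutrophil array 1 gave differences of 4.32 and 4.26. MAC1+ and MAC1- myeloblasts differed by -0.06, with a 95% interval of -0.44 to 0.32 (limma adjusted p = 0.941).

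Clec4n encodes Dectin-2, a receptor for fungal mannans. The probe set used (1419627_s_at) had 236, 566 and 485 in neutrophils, 38.3, 34.6 and 30.2 in MAC1+ myeloblasts and 33.1, 16.3 and 25.9 in MAC1- myeloblasts. The other (1425951_a_at) had 24.2, 151 and 149 in neutrophils, 11.6, 6.39 and 5.16 in MAC1+ myeloblasts and 8.24, 7.92 and 7.15 in MAC1- myeloblasts. Neutrophils lay above both myeloblast populations on every array of both probe sets, and neutrophil array 1 was the lowest of the neutrophil arrays on both. Neutrophils exceeded MAC1+ myeloblasts by 3.06 ± 0.30 (limma adjusted p = 2.98e-05) and MAC1- myeloblasts by 3.37 ± 0.30 (limma adjusted p = 1.27e-05). Without neutrophil array 1 the differences were 3.42 and 3.74. The gene was dim in myeloblasts, and the difference to MAC1+ myeloblasts was 3.52 with an offset of 1 and 2.26 with an offset of 64. On the other probe set neutrophils exceeded MAC1+ myeloblasts by 2.13. MAC1+ and MAC1- myeloblasts differed by 0.31, with a 95% interval of -0.38 to 1 (limma adjusted p = 0.702). In the platform's naming, the endings _s_at and _a_at mark probe sets that match more than a single transcript, which holds for both Clec4n probe sets and for that of Clec4d.

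Clec7a (1420699_at), which encodes Dectin-1, was highest in neutrophils, lower in MAC1- myeloblasts and lowest in MAC1+ myeloblasts. Its intensities were 10995, 8930 and 7978 in neutrophils, 837, 829 and 974 in MAC1+ myeloblasts and 4440, 3929 and 4144 in MAC1- myeloblasts. No array of one population overlapped another population. Neutrophils exceeded MAC1+ myeloblasts by 3.37 ± 0.16 (limma adjusted p = 3.17e-07), or 10.3-fold, and MAC1- myeloblasts by 1.14 ± 0.16 (limma adjusted p = 0.000248), or 2.21-fold. They were 3.24 and 1.02 without neutrophil array 1. MAC1+ myeloblasts differed from MAC1- myeloblasts by -2.23 ± 0.16 (limma adjusted p = 3.3e-05), a 4.68-fold lower intensity.

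Monocyte and macrophage markers moved with Clec7a and Clec4d between the myeloblast populations. Of 15 measured markers of 16 listed, 12 were lower and 1 higher in MAC1+ than in MAC1- myeloblasts. In neutrophils 8 were higher and 1 lower than in MAC1+ myeloblasts, and 5 were higher and 7 lower than in MAC1- myeloblasts. Beside these stand the shares of all genes given above, 5.51% lower for MAC1+ against MAC1- myeloblasts, 19.7% higher for neutrophils against MAC1+ myeloblasts, and 22.6% higher and 30% lower against MAC1- myeloblasts. Their summed intensity was 41955 to 49213 in neutrophils, 23239 to 26307 in MAC1+ myeloblasts and 68816 to 75455 in MAC1- myeloblasts, and 1, 2 and 1 of the markers averaged under 100 in neutrophils, MAC1+ and MAC1- myeloblasts. Csf1r, the receptor of macrophage colony-stimulating factor, had 12949, 7976 and 7112 in neutrophils, 485, 507 and 715 in MAC1+ myeloblasts and 8385, 8166 and 8797 in MAC1- myeloblasts. Irf8, a transcription factor of monocytes and dendritic cells, had 373, 623 and 309 in neutrophils, 432, 549 and 1047 in MAC1+ myeloblasts and 13516, 12624 and 13335 in MAC1- myeloblasts. Csf1r and Irf8 were picked from the list after their values were seen. The part of these cells or transcripts in the results on Clec7a and Clec4d was not tested. The 13 dendritic cell markers summed to 1897 to 2466 in neutrophils, 570 to 582 in MAC1+ myeloblasts and 1073 to 1278 in MAC1- myeloblasts, with 10, 12 and 10 of them under 100. Of the 13, 2 were higher and 2 lower for neutrophils against MAC1+ myeloblasts, where 19.7% of all genes were higher and 28.4% lower. Against MAC1- myeloblasts 2 were higher and 4 lower, beside 22.6% and 30% of all genes. For MAC1+ against MAC1- myeloblasts 0 were higher and 2 lower, beside 6.31% and 5.51%. The part of these dendritic cell markers was not tested.

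Clec4a2, which encodes the inhibitory receptor DCIR, was high in neutrophils and MAC1+ myeloblasts and lower in MAC1- myeloblasts. The probe set used (1422013_at) had 8902, 6688 and 6433 in neutrophils, 8233, 7941 and 7879 in MAC1+ myeloblasts and 2396, 2005 and 1975 in MAC1- myeloblasts. The other (1425406_at) had 1084, 910 and 833 in neutrophils, 1191, 1075 and 1364 in MAC1+ myeloblasts and 648, 607 and 631 in MAC1- myeloblasts. On both, MAC1- myeloblasts lay below every array of the other populations, and neutrophils and MAC1+ myeloblasts overlapped. MAC1+ myeloblasts exceeded MAC1- myeloblasts by 1.91 ± 0.17 (limma adjusted p = 9.69e-05), or 3.77-fold, and by 1.89-fold on the other probe set. Neutrophils exceeded MAC1- myeloblasts by 1.77 ± 0.17 (limma adjusted p = 1.62e-05), or 3.41-fold, and by 1.48-fold on the other probe set. That difference was 1.62 without neutrophil array 1. The sizes on the probe sets thus differed, while the direction and the call were shared. Neutrophils and MAC1+ myeloblasts differed by -0.14, with a 95% interval of -0.52 to 0.23 (limma adjusted p = 0.512), and the sign turned to 0.17 after quantile normalization and to 0.14 after centring each array. Without neutrophil array 1 it was -0.29 (limma adjusted p = 0.0776). A further probe set, annotated to Clec4a2 and Clec4b1 together, was left out.

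Clec5a (1421366_at) encodes MDL-1, which is known as a receptor for dengue virus and as an amplifier of myeloid inflammation. It had 1259, 2484 and 2362 in neutrophils, 2466, 2456 and 2288 in MAC1+ myeloblasts and 1070, 835 and 919 in MAC1- myeloblasts. Neutrophil array 1 lay near the MAC1- myeloblasts and the other neutrophil arrays lay within or beside the range of MAC1+ myeloblasts. MAC1+ myeloblasts exceeded MAC1- myeloblasts by 1.34 ± 0.25 (limma adjusted p = 0.00814), or 2.54-fold. Neutrophils exceeded MAC1- myeloblasts by 1.04 ± 0.25 (limma adjusted p = 0.00668), or 2.06-fold, and by 1.36 without neutrophil array 1. Neutrophils and MAC1+ myeloblasts differed by -0.30, with a 95% interval of -0.87 to 0.27 (limma adjusted p = 0.359), and by 0.01 without neutrophil array 1 (limma adjusted p = 0.947).

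**Figure D2:**
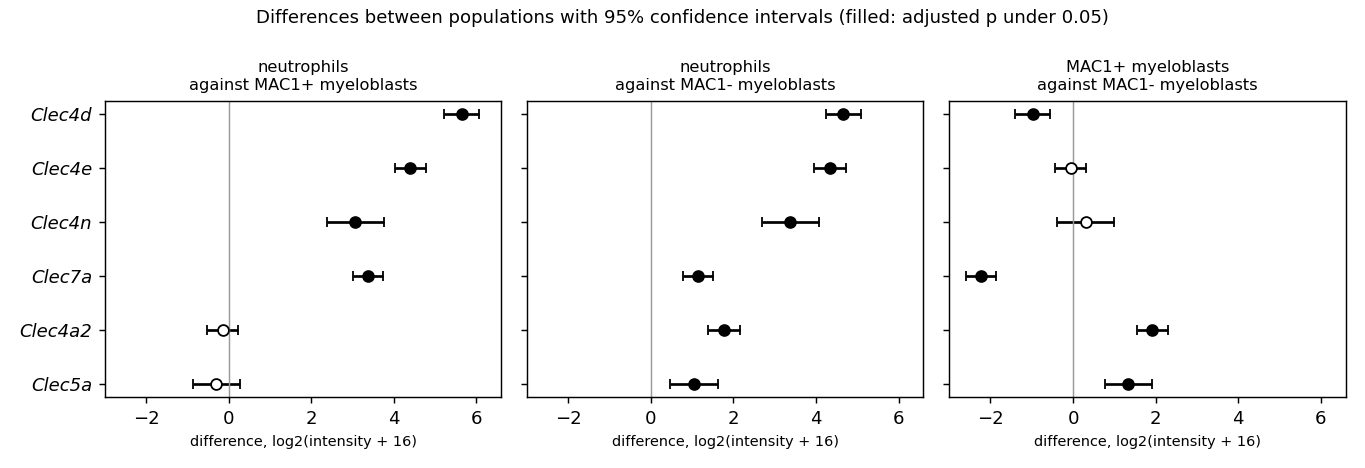
Difference in log2(intensity + 16) with its 95% confidence interval for each measured receptor gene, in neutrophils against MAC1+ myeloblasts, neutrophils against MAC1- myeloblasts and MAC1+ against MAC1- myeloblasts (3 arrays per population). Filled points passed an adjusted p under 0.05. Clec4d at 5.64 and Clec4e at 4.40 lie farthest right for neutrophils against MAC1+ myeloblasts, and Clec7a at -2.23 and Clec4a2 at 1.91 lie at the opposite ends for MAC1+ against MAC1- myeloblasts.

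Set against each other over the 9 arrays, each gene centred on its own mean, the receptors closest in pattern were Clec4a2 with Clec5a, at a root mean square difference of 0.49 on the log2 scale, and Clec4d with Clec4e, at 0.53. The farthest were Clec4d with Clec5a, at 2.47. Among all genes the nearest to Clec4d were Hacd4 at 0.20, Ccl6 at 0.26 and Tspan13 at 0.27. Ccl6 encodes a chemokine of myeloid cells. Nearest to Clec4e were Slc39a4 at 0.11, Smpd5 at 0.15 and Ypel3 at 0.15, of which Slc39a4 encodes a zinc transporter. The genes nearest to Clec4n were Thbs1, encoding thrombospondin, and Dubr, both at 0.21, and Arsg at 0.23. For Clec7a they were Tpd52 and Arfip1, both at 0.26, and Arl2bp at 0.27. For Clec4a2 they were Chil3, a chitinase-like secreted protein, and Ltb4r1, the leukotriene B4 receptor, both at 0.11, and Pde2a at 0.13. Those nearest to Clec5a were Irak3, an inhibitor of Toll-like receptor signalling, at 0.12, Hcfc2 at 0.13 and Rab28 at 0.15. These distances describe 9 arrays of 3 populations and carry no test.

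The adaptors, Syk and the proximal kinases formed a list of 16 genes, 14 of them measured. In neutrophils 7 were higher and 2 lower than in MAC1+ myeloblasts, and 8 were higher and 2 lower than in MAC1- myeloblasts. In MAC1+ myeloblasts 4 were higher and 1 lower than in MAC1- myeloblasts. Beside these counts stand 19.7% higher and 28.4% lower of all genes for neutrophils against MAC1+ myeloblasts. The shares were 22.6% and 30% against MAC1- myeloblasts, and 6.31% and 5.51% for MAC1+ against MAC1- myeloblasts. The list's median difference was 0.47 for neutrophils against MAC1+ myeloblasts, where that of all genes was 0.05, then 0.70 against MAC1- myeloblasts, beside 0.05, and 0.14 for MAC1+ against MAC1- myeloblasts, beside -0.01. The 2 lower genes for neutrophils against MAC1+ myeloblasts were 1 to 3 when single arrays were left out, 1 after quantile normalization and 0 after centring. The 4 higher ones for MAC1+ against MAC1- myeloblasts became 2 without MAC1+ array 2, MAC1- array 2 or MAC1- array 3, and 5 without neutrophil array 1. Of all 18193 genes these fits called 747, 719, 710 and 2191 higher, where the fit of all arrays called 1148.

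Fgr, a Src-family kinase, moved farthest in this list. It had 7768, 6602 and 6025 in neutrophils, 1488, 1325 and 1225 in MAC1+ myeloblasts and 41.2, 47.1 and 39.1 in MAC1- myeloblasts, with no overlap. Neutrophils exceeded MAC1+ myeloblasts 4.99-fold (limma adjusted p = 2.1e-06), and MAC1+ exceeded MAC1- myeloblasts by 4.54 (limma adjusted p = 8.39e-07). Syk itself had 10615, 8875 and 8477 in neutrophils, 5136, 4890 and 5843 in MAC1+ myeloblasts and 2949, 2628 and 2785 in MAC1- myeloblasts. Neutrophils exceeded MAC1+ myeloblasts 1.76-fold (limma adjusted p = 0.00152), and MAC1+ exceeded MAC1- myeloblasts 1.89-fold (limma adjusted p = 0.00373). Hcst, the DAP10 adaptor of Clec5a, had 4090, 2850 and 2160 in neutrophils, 1003, 1238 and 982 in MAC1+ myeloblasts and 553, 437 and 448 in MAC1- myeloblasts. Its 2.72-fold higher level in neutrophils than in MAC1+ myeloblasts passed the test (limma adjusted p = 0.000774). The 2.20-fold higher level in MAC1+ than in MAC1- myeloblasts (limma adjusted p = 0.0135) was lost without MAC1+ array 2, MAC1- array 2 or MAC1- array 3, at adjusted p of up to 0.0644.

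The other adaptors, Fcer1g and Tyrobp, were picked for their role after their values were seen. Fcer1g, which carries the signal of Clec4d, Clec4e and Clec4n, had 11300, 9064 and 8604 in neutrophils, 4826, 4740 and 4376 in MAC1+ myeloblasts and 4779, 4013 and 4712 in MAC1- myeloblasts. Tyrobp had 12636, 12882 and 12834 in neutrophils, 8538, 7797 and 8665 in MAC1+ myeloblasts and 8897, 7788 and 7987 in MAC1- myeloblasts. Both were higher in neutrophils than in MAC1+ myeloblasts, Fcer1g 2.06-fold (limma adjusted p = 0.000429) and Tyrobp 1.53-fold (limma adjusted p = 0.00328), and neither passed the test between the myeloblast populations. Pik3cg, a phosphoinositide 3-kinase subunit of leukocytes, was 3.12-fold higher in neutrophils than in MAC1+ myeloblasts (limma adjusted p = 1.1e-05). Vav2, a guanine nucleotide exchange factor, was 5.66-fold lower in MAC1+ than in MAC1- myeloblasts (limma adjusted p = 8.4e-05) and differed by -0.85 in neutrophils against MAC1+ myeloblasts (limma adjusted p = 0.00847). Pik3cd had 1418, 588 and 520 in neutrophils and 8900, 3939 and 943 in MAC1+ myeloblasts, so that its 4.18-fold lower level (limma adjusted p = 0.0468) rested on widely spread arrays. Its call was lost in 7 of 9 fits that left out an array, at adjusted p of up to 0.151, and after quantile normalization and centring. Its order of arrays within each population was that of Cxcl1, given below, and a signal shared by their probe sets was not tested.

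**Figure D3:**
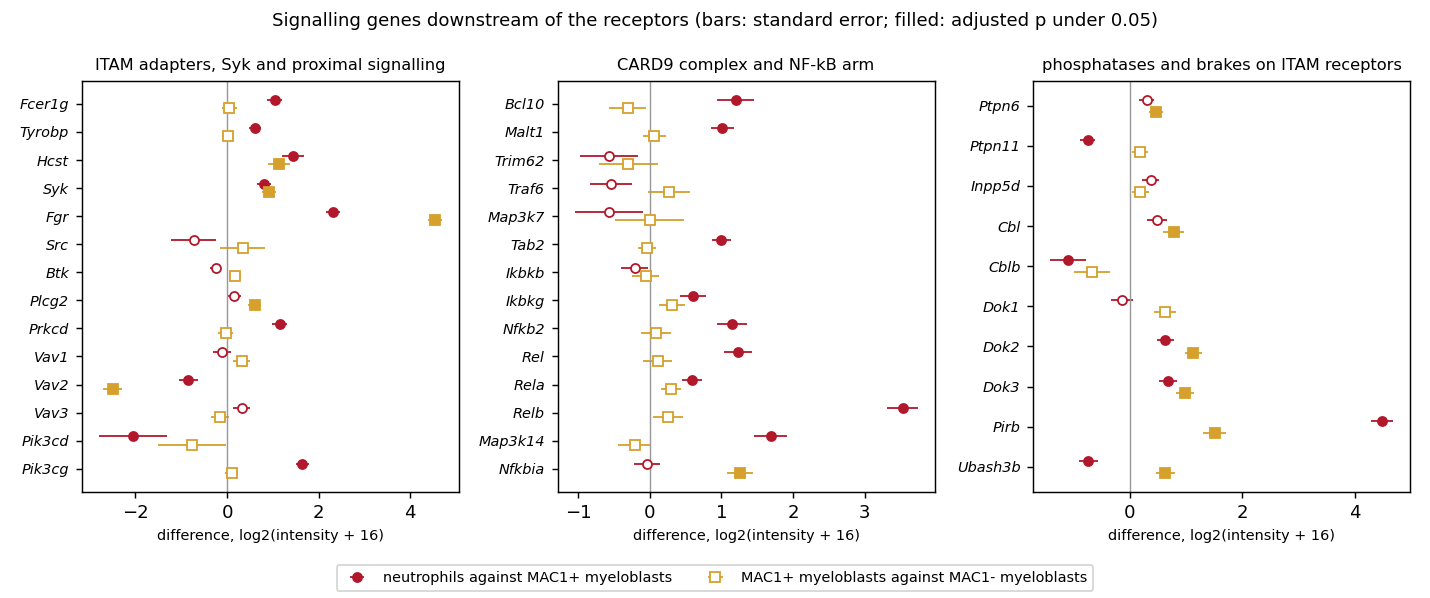
Difference in log2(intensity + 16) with its standard error for each measured gene of the lists of ITAM adapters and Syk, of the CARD9 complex and NF-κB arm, and of phosphatases and brakes. Circles are neutrophils against MAC1+ myeloblasts, squares are MAC1+ against MAC1- myeloblasts, and filled symbols passed an adjusted p under 0.05. Pirb at 4.49 and Relb at 3.53 lie farthest right among the circles and Fgr at 4.54 among the squares.

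Downstream of Card9, the list of the complex and the NF-κB arm held 18 genes, 14 of them measured. In neutrophils 9 were higher and none lower than in MAC1+ myeloblasts, and 10 were higher and none lower than in MAC1- myeloblasts, nor was any lower at an unadjusted p under 0.05. Without neutrophil array 1 the counts of higher genes were again 9 and 10, and 2 genes were lower in each of these comparisons. That fit called 4100 and 4557 of all 18193 genes higher and 5726 and 6045 lower. Between the myeloblast populations 1 of the 14 genes, Nfkbia, passed the test, and 2 did after centring. Centring called 1724 of all 18193 genes higher there and 712 lower. The shares of all genes were 19.7% higher and 28.4% lower for neutrophils against MAC1+ myeloblasts and 22.6% and 30% against MAC1- myeloblasts. They were 6.31% and 5.51% for MAC1+ against MAC1- myeloblasts. The list's median difference was 0.80 for neutrophils against MAC1+ myeloblasts and 0.93 against MAC1- myeloblasts, where all genes had 0.05 in both, and 0.08 for MAC1+ against MAC1- myeloblasts, beside -0.01.

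Relb, the partner of p52 in the non-canonical arm of NF-κB, had 326, 510 and 492 in neutrophils, 23.3, 19.8 and 25.9 in MAC1+ myeloblasts and 24.1, 12.5 and 14.8 in MAC1- myeloblasts. It was higher in neutrophils than in MAC1+ myeloblasts by 3.53 (limma adjusted p = 1.08e-06), and the myeloblast populations overlapped. Map3k14, which encodes the NF-κB-inducing kinase of the same arm, had 913, 576 and 476 in neutrophils, 218, 169 and 168 in MAC1+ myeloblasts and 205, 211 and 231 in MAC1- myeloblasts. It was 3.23-fold higher in neutrophils than in MAC1+ myeloblasts (limma adjusted p = 0.000257). Bcl10, the direct partner of Card9, had 9359, 5509 and 5042 in neutrophils, 3568, 2457 and 2398 in MAC1+ myeloblasts and 3150, 3424 and 3765 in MAC1- myeloblasts. Bcl10 was 2.30-fold higher in neutrophils than in MAC1+ myeloblasts (limma adjusted p = 0.00396) and 1.85-fold higher than in MAC1- myeloblasts (limma adjusted p = 0.0172), the second call being lost without MAC1- array 1 (adjusted p = 0.059). Rel, the c-Rel subunit, was 2.35-fold higher in neutrophils than in MAC1+ myeloblasts (limma adjusted p = 0.000704). Nfkbia encodes the inhibitor IκBα. It had 10770, 8051 and 6753 in neutrophils, 9315, 8234 and 8266 in MAC1+ myeloblasts and 3384, 3715 and 3607 in MAC1- myeloblasts. Its level was 2.40-fold higher in MAC1+ than in MAC1- myeloblasts (limma adjusted p = 0.00201), and neutrophils and MAC1+ myeloblasts overlapped.

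The phosphatases and brakes on ITAM receptors formed a list of 11 genes with 10 measured. In neutrophils 3 were higher and 3 lower than in MAC1+ myeloblasts, and 6 were higher and 2 lower than in MAC1- myeloblasts. In MAC1+ myeloblasts 6 were higher and none lower than in MAC1- myeloblasts, and none was lower at an unadjusted p under 0.05. Of all genes, 19.7% were higher and 28.4% lower for neutrophils against MAC1+ myeloblasts, and 22.6% and 30% against MAC1- myeloblasts. For MAC1+ against MAC1- myeloblasts these shares were 6.31% and 5.51%. The list's median difference was 0.34 for neutrophils against MAC1+ myeloblasts and 0.67 against MAC1- myeloblasts, beside 0.05 for all genes in both, and 0.63 for MAC1+ against MAC1- myeloblasts, beside -0.01. The 6 higher genes for MAC1+ against MAC1- myeloblasts became 3 after quantile normalization and 3 without MAC1+ array 2 or 3 or MAC1- array 2 or 3. Without neutrophil array 1 they became 7, with 1 lower, in a fit that called 2191 of all 18193 genes higher and 1987 lower there. For neutrophils against MAC1+ myeloblasts the 3 higher genes became 6 after quantile normalization or centring, and the 3 lower became 1 after quantile normalization. Of all 18193 genes, quantile normalization called 3777 higher and 4849 lower there, and centring called 6131 higher.

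Pirb, a receptor with inhibitory motifs, had 8590, 7328 and 6983 in neutrophils, 361, 318 and 293 in MAC1+ myeloblasts and 130, 75.5 and 110 in MAC1- myeloblasts. The populations did not overlap, and neutrophils exceeded MAC1+ myeloblasts 22.5-fold (limma adjusted p = 2.03e-07). MAC1+ exceeded MAC1- myeloblasts 2.85-fold (limma adjusted p = 0.00109). Dok3, an adaptor known as a brake on immune receptor signalling, had 7732, 5965 and 5405 in neutrophils, 3904, 3792 and 4082 in MAC1+ myeloblasts and 1954, 1955 and 2003 in MAC1- myeloblasts. It was 1.60-fold higher in neutrophils than in MAC1+ myeloblasts (limma adjusted p = 0.00623) and 1.98-fold higher in MAC1+ than in MAC1- myeloblasts (limma adjusted p = 0.00359). Of the phosphatases that Clec4a2 recruits, Ptpn11 was 1.68-fold lower in neutrophils than in MAC1+ myeloblasts (limma adjusted p = 0.00165). Ptpn6, picked for its role after its values were seen, had 8210, 8262 and 7446 in neutrophils, 6294, 6187 and 6870 in MAC1+ myeloblasts and 4799, 4410 and 4695 in MAC1- myeloblasts. Its 1.39-fold higher level in MAC1+ than in MAC1- myeloblasts (limma adjusted p = 0.0454) was lost in 7 of 9 fits without 1 array, at adjusted p of up to 0.182.

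Of 15 cytokine and inflammatory genes known as targets of Card9 signalling, 6 were higher and none lower in neutrophils than in MAC1+ myeloblasts. Beside them 19.7% of all genes were higher and 28.4% lower. Against MAC1- myeloblasts 5 were higher and 1 lower in neutrophils, where 22.6% of all genes were higher and 30% lower. For MAC1+ against MAC1- myeloblasts 1 was higher and 1 lower, beside 6.31% and 5.51% of all genes. The list's median difference was 0.14 for neutrophils against MAC1+ myeloblasts and 0.19 against MAC1- myeloblasts, beside 0.05 for all genes in both, and -0.06 for MAC1+ against MAC1- myeloblasts, beside -0.01. Without neutrophil array 1, or without MAC1+ array 3, 1 gene was lower in neutrophils than in MAC1+ myeloblasts, and without neutrophil array 1, 2 were lower in neutrophils than in MAC1- myeloblasts. Of all 18193 genes, the fit without neutrophil array 1 called 5726 and 6045 lower in these comparisons. The fit without MAC1+ array 3 called 4709 lower in the first. At an unadjusted p under 0.05, to which the shares of all genes above do not apply, 1 cytokine gene was lower in neutrophils than in MAC1+ myeloblasts. After centring, 8 were higher in neutrophils than in MAC1- myeloblasts and 2 in MAC1+ than in MAC1- myeloblasts. Of all 18193 genes 8147 and 1724 were then higher. Of the 15 genes 10 averaged under 100 in neutrophils, 12 in MAC1+ myeloblasts and 14 in MAC1- myeloblasts. Il1b, which encodes interleukin-1β, had 6725, 5579 and 5324 in neutrophils, 149, 117 and 109 in MAC1+ myeloblasts and 97.6, 91.5 and 94.7 in MAC1- myeloblasts. It was 41.8-fold higher in neutrophils than in MAC1+ myeloblasts (limma adjusted p = 4.19e-08), and the myeloblast populations did not differ by the test (limma adjusted p = 0.265). Tnf had 966, 1040 and 901 in neutrophils, 216, 253 and 175 in MAC1+ myeloblasts and 81.3, 105 and 78.3 in MAC1- myeloblasts, with no overlap. Its level was 4.31-fold higher in neutrophils than in MAC1+ myeloblasts (limma adjusted p = 8.78e-06) and 2.21-fold higher in MAC1+ than in MAC1- myeloblasts (limma adjusted p = 0.0028). Cxcl2, a chemokine that attracts neutrophils, had 707, 288 and 262 in neutrophils, 2.66, 15.3 and 17.2 in MAC1+ myeloblasts and 21, 9.3 and 13.4 in MAC1- myeloblasts, and neutrophils exceeded MAC1+ myeloblasts by 3.87 (limma adjusted p = 2.73e-05), or by 3.44 without neutrophil array 1. Ccl3, another chemokine, had 54.2, 46.8 and 35.7 in neutrophils, 8.62, 12.4 and 13.9 in MAC1+ myeloblasts and 49.9, 38.4 and 41.7 in MAC1- myeloblasts. It was the gene called lower in MAC1+ than in MAC1- myeloblasts, at -1.10 (limma adjusted p = 0.00256). Cxcl1, a related chemokine, had 496, 156 and 129 in neutrophils, 3077, 1243 and 280 in MAC1+ myeloblasts and 1118, 2181 and 2176 in MAC1- myeloblasts. It was 7.53-fold lower in neutrophils than in MAC1- myeloblasts (limma adjusted p = 0.0135), and in the comparisons with MAC1+ myeloblasts, whose arrays spread widely, it did not pass the test (limma adjusted p = 0.0524 for neutrophils and 0.741 for MAC1- myeloblasts). Within each population the order of its arrays was that of Pik3cd, and a signal shared by their probe sets was not tested.

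Beyond the 8 genes, the list of other C-type lectin family genes held 44, of which 38 were measured. In neutrophils 11 were higher and 8 lower than in MAC1+ myeloblasts, and 9 were higher and 11 lower than in MAC1- myeloblasts. In MAC1+ myeloblasts 4 were higher and 9 lower than in MAC1- myeloblasts. Beside the counts for neutrophils stand the shares of all genes, 19.7% higher and 28.4% lower against MAC1+ myeloblasts and 22.6% higher and 30% lower against MAC1- myeloblasts, and beside those for MAC1+ against MAC1- myeloblasts 6.31% and 5.51%. After centring, 16 were higher and 9 lower in neutrophils than in MAC1- myeloblasts, beside 8147 and 4233 of all 18193 genes. Many were dim, with a mean intensity under 100 for 29 of them in neutrophils, 28 in MAC1+ myeloblasts and 26 in MAC1- myeloblasts. The median difference of the list was 0.25 for neutrophils against MAC1+ myeloblasts and -0.15 against MAC1- myeloblasts, beside 0.05 for all genes in both, and 0.00 for MAC1+ against MAC1- myeloblasts, beside -0.01. Leaving out MAC1+ array 2 or array 3 lowered the 11 genes higher in neutrophils than in MAC1+ myeloblasts to 6 and 7. Of all 18193 genes these fits called 2786 and 2988 higher.

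**Figure D4:**
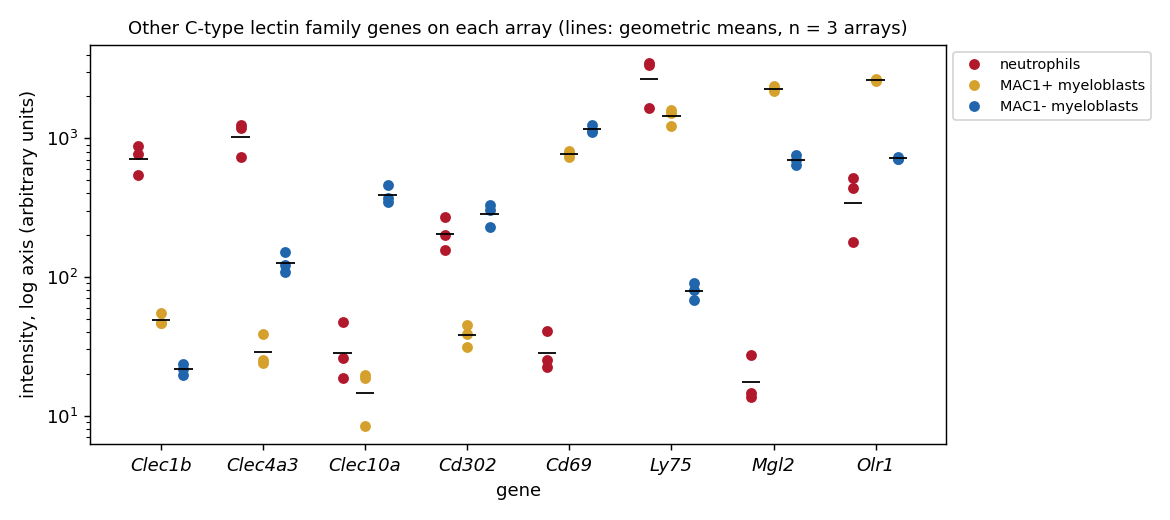
Intensity (arbitrary units, log axis) of named genes of the wider C-type lectin family on each array, with neutrophils, MAC1+ myeloblasts and MAC1- myeloblasts side by side for each gene and lines at the geometric means of 3 arrays. Mgl2 and Olr1 were highest on the 3 arrays of MAC1+ myeloblasts, at 2173 or more, and Clec1b and Clec4a3 on the 3 arrays of neutrophils.

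Clec4a3, of the same family branch as Clec4a2, had 733, 1245 and 1184 in neutrophils, 24, 25.3 and 38.9 in MAC1+ myeloblasts and 152, 121 and 109 in MAC1- myeloblasts. It was higher in neutrophils than in MAC1+ myeloblasts by 4.54 (limma adjusted p = 5.3e-07), and MAC1+ differed from MAC1- myeloblasts by -1.66 (limma adjusted p = 0.0019). The direction between the myeloblast populations was thus that of Clec7a and Clec4d and the opposite of Clec4a2. Clec1b, the podoplanin receptor CLEC-2, which signals through Syk, had 539, 878 and 768 in neutrophils, 46.1, 55.2 and 46.4 in MAC1+ myeloblasts and 23.4, 19.5 and 21.7 in MAC1- myeloblasts. It was higher in neutrophils than in MAC1+ myeloblasts by 3.49 (limma adjusted p = 6.38e-07). Ly75, the endocytic receptor DEC-205, had 1652, 3499 and 3347 in neutrophils, 1599, 1516 and 1233 in MAC1+ myeloblasts and 67.9, 90.2 and 80.9 in MAC1- myeloblasts. Its level was 15.3-fold higher in MAC1+ than in MAC1- myeloblasts (limma adjusted p = 3.16e-05).

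Further family members were lower in at least 1 of the comparisons. Olr1, the receptor for oxidised low-density lipoprotein and the neighbour of Clec7a, had 179, 436 and 519 in neutrophils, 2650, 2577 and 2687 in MAC1+ myeloblasts and 708, 713 and 738 in MAC1- myeloblasts. It was 7.34-fold lower in neutrophils than in MAC1+ myeloblasts (limma adjusted p = 7.07e-05) and 3.61-fold higher in MAC1+ than in MAC1- myeloblasts (limma adjusted p = 0.0058), while Clec7a differed in the other direction in both comparisons. Mgl2, a galactose-binding lectin of macrophages, had 27.2, 13.7 and 14.6 in neutrophils, 2362, 2317 and 2173 in MAC1+ myeloblasts and 643, 753 and 698 in MAC1- myeloblasts. Neutrophils differed from MAC1+ myeloblasts by -6.08 (limma adjusted p = 4.04e-08). Its close relative Clec10a had 26, 47.3 and 18.7 in neutrophils, 8.39, 18.7 and 19.5 in MAC1+ myeloblasts and 460, 348 and 371 in MAC1- myeloblasts, a difference of -3.71 for MAC1+ against MAC1- myeloblasts (limma adjusted p = 2.47e-05). These paralogues are alike in sequence and the probes were not checked for shared binding. Cd69, an early activation antigen, had 25.1, 22.3 and 40.4 in neutrophils, 734, 808 and 766 in MAC1+ myeloblasts and 1253, 1115 and 1128 in MAC1- myeloblasts, a difference of -4.14 for neutrophils against MAC1+ myeloblasts (limma adjusted p = 1.58e-07). Cd302, an endocytic lectin, was lower in MAC1+ than in MAC1- myeloblasts, at -2.47 (limma adjusted p = 0.000124).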

How the data were processed

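Per the labels' protocols, column-purified RNA was amplified in repeated rounds and carried a biotin label. The authors deposited intensity values on a linear scale for 45101 probe sets on 9 arrays; their summarisation, background correction, scaling, software and genome build are not given in the sources used here. Tests used log2(intensity + 16) of the deposited intensities, which understates differences of dim genes. No detection calls were used. Probe sets with a single annotated gene (34945) were named, 64 controls were left out, and each gene was represented by the probe set of highest mean over all arrays, which gave 18193 genes. Names were matched by gene ID for 99.4% of them. A linear model of the 3 populations was fitted with limma 3.58.1 in R 4.3.3 over all 9 arrays, without a block, with Benjamini-Hochberg adjustment over all genes of a comparison, and genes with an adjusted p under 0.05 were called. The p-values describe the spread between these arrays alone, which could be technical, and 3 arrays per population limit the precision.

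No pairing by replicate number was seen: 1 of 9 same-number pairs had a correlation of deviations over 0.1, within a range of -0.31 to 0.13. With 3 arrays per population these correlations cannot exclude a shared animal or day, and the labels do not say what a number marks. Members and gene lists were chosen with earlier results of these data known. Named genes are all members with every probe set, up to 4 called genes with the largest difference per list and comparison, the 3 genes nearest to each member, Kit and Itgam; of the list genes the text gives only some, and any named beyond this rule is said to have been picked after its values were seen. Alternatives were quantile normalization, centring of each array, offsets of 1 and 64, omission of dim genes, averaging or separating probe sets, leaving out probe sets that match several transcripts, another variance prior, fits of only 2 populations, a test against a 2-fold change, a replicate block and leaving out each array. The alternatives for gene lists and their named genes (quantile normalization, centring, the block and leaving out arrays) were chosen after seeing the data. Leaving out probe sets that match several transcripts, with endings _x_at, _s_at or _a_at, was not run for them. Among these genes Bcl10, Vav2, Il1b and Cxcl1 rest on such probe sets.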

Additional observations from a re-analysis of the deposited data

How the results depend on the processing

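Of 372 values of the receptor genes under alternatives, 362 kept their direction and call, 4 lost the call and 6 changed sign. Leaving out single arrays left the counts of receptor genes at 2 higher and 2 lower for MAC1+ against MAC1- myeloblasts, 4 and 0 for neutrophils against MAC1+ myeloblasts and 6 and 0 for neutrophils against MAC1- myeloblasts. With the replicate number as a block the counts were the same, 2 and 2, 4 and 0, and 6 and 0, and 0 of 9 arrays correlated best with an array of its own number. Over all genes the block gave 868 higher and 795 lower genes for MAC1+ against MAC1- myeloblasts, where the fit without it gave 1148 and 1003. Without probe sets that match several transcripts, Clec4d and Clec4n have no value, which left 2 receptor genes higher in neutrophils than in MAC1+ myeloblasts and 1 lower in MAC1+ than in MAC1- myeloblasts. Clec4d and Clec4n also drop out of the 6 genes higher in neutrophils than in MAC1- myeloblasts. Tested against a 2-fold change, 1 was higher and 1 lower in MAC1+ than in MAC1- myeloblasts, and the calls lost were Clec4d (-0.97) and Clec5a (1.34) there and Clec5a (1.04) and Clec7a (1.14) in neutrophils against MAC1- myeloblasts.

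The changes of sign were all in differences that were not called. Clec4a2 in neutrophils against MAC1+ myeloblasts was 0.17 after quantile normalization and 0.14 after centring. Clec4e in MAC1+ against MAC1- myeloblasts was 0.12 after centring, 0.02 without MAC1+ array 1 or MAC1- array 1, and -0.18 to 0.02 over single arrays left out, and Clec5a in neutrophils against MAC1+ myeloblasts was 0.01 without neutrophil array 1 and -0.47 to 0.01 over single arrays left out. The cause was not tested.

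Of 360 counts for gene lists, 35 moved by over 1.5 times. After centring, 2 genes of the CARD9 and NF-κB arm and 2 cytokine genes were higher in MAC1+ than in MAC1- myeloblasts, 8 cytokine genes and 16 other lectins were higher in neutrophils than in MAC1- myeloblasts, and 1 phosphatase was lower there. In neutrophils against MAC1+ myeloblasts, centring gave 0 lower ITAM genes and 6 higher phosphatases. Quantile normalization gave 1 lower ITAM gene, 6 higher and 1 lower phosphatase there, and 3 higher phosphatases for MAC1+ against MAC1- myeloblasts. The block gave 1 cytokine gene lower in neutrophils than in MAC1+ myeloblasts. Leaving out single arrays gave 0 to 2 lower CARD9 arm genes for neutrophils against either myeloblast population, 1 to 2 lower cytokine genes against MAC1- and 0 to 1 against MAC1+ myeloblasts, 1 to 3 lower ITAM genes against MAC1+ myeloblasts and 6 to 11 higher other lectins against them. For MAC1+ against MAC1- myeloblasts it gave 2 to 5 higher ITAM genes and 3 to 7 higher and 0 to 1 lower phosphatases. Of 876 values for named genes of the lists, all of them for differences called in the fit of all arrays, 40 lost their call and 0 changed sign. Beside those named above they concerned Cbl, Cblb, Il12b, Plcg2 and Ubash3b, of which Plcg2 was picked after its values were seen.

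Centring moved the median of all genes to 0.33 for neutrophils against MAC1+ myeloblasts, 0.51 against MAC1- myeloblasts and 0.17 for MAC1+ against MAC1- myeloblasts. The share of calls that were higher became 59%, 65.8% and 70.8% in these comparisons, against 41%, 42.9% and 53.4% without it. For MAC1+ against MAC1- myeloblasts 197 genes were called higher and 181 lower against a 2-fold change, 2274 and 2235 with only these 2 populations fitted, 2191 and 1987 without neutrophil array 1, and 710 to 816 and 599 to 723 without an array of either myeloblast population. Centring gave 1724 higher genes there, 6131 in neutrophils against MAC1+ myeloblasts (3591 without it) and 8147 against MAC1- myeloblasts (4109 without it). Against a 2-fold change these neutrophil comparisons gave 1025 higher and 2660 lower and 1403 higher and 3106 lower genes, where the usual test gave 5163 and 5461 lower. With all 34945 probe sets tested singly they gave 6638 and 7552 higher and 8655 and 9266 lower probe sets.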

Other observations

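Markers of other cells were counted between the myeloblast populations, where 11.8% of all genes were called. Few genes carried the summed intensities of these markers. Of the measured B cell, T and NK cell, and erythroid and megakaryocyte markers, 0 of 9, 0 of 9 and 0 of 10 were called for MAC1+ against MAC1- myeloblasts by limma at an adjusted p under 0.05. At an unadjusted p under 0.05, to which the 11.8% of all genes does not apply, there were 1, 0 and 2, all lower in MAC1+ myeloblasts. Of 14 eosinophil, basophil and mast cell markers, 1 was higher and 1 lower there, beside 6.31% and 5.51% of all genes. For neutrophils against MAC1+ myeloblasts the B cell list had 0 higher and 3 lower, the T and NK cell list 2 and 2, the erythroid and megakaryocyte list 2 and 1, and the eosinophil, basophil and mast cell list 3 and 6. In that comparison 19.7% of all genes were higher and 28.4% lower. The 9 measured B cell markers summed to 1185 to 2881 in neutrophils, 3514 to 13222 in MAC1+ myeloblasts and 9205 to 13476 in MAC1- myeloblasts. The 9 T and NK cell markers summed to 499 to 928 in neutrophils, 10807 to 12020 in MAC1+ myeloblasts and 7702 to 8158 in MAC1- myeloblasts, and 8 of the 9 averaged under 100 in MAC1+ myeloblasts. The 10 erythroid and megakaryocyte markers summed to 1018 to 1273 in neutrophils, 7936 to 8210 in MAC1+ myeloblasts and 5084 to 5764 in MAC1- myeloblasts, and 8 of the 10 averaged under 100 in MAC1+ myeloblasts. The 14 markers of eosinophils, basophils and mast cells summed to 1311 to 1499 in neutrophils, 3757 to 3923 in MAC1+ myeloblasts and 2565 to 2654 in MAC1- myeloblasts. Their part in the results was not tested.

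Within MAC1+ myeloblasts, Ccr2, a chemokine receptor of monocytes, had 2426, 1183 and 310 on arrays 1, 2 and 3. On the same arrays Cxcl1 had 3077, 1243 and 280 and Pik3cd had 8900, 3939 and 943, so that array 3 was lowest for these 3 genes. Cxcl1 and Pik3cd also shared their order of arrays in the other populations. In neutrophils they had 496, 156 and 129, and 1418, 588 and 520. In MAC1- myeloblasts they had 1118, 2181 and 2176, and 3476, 6887 and 6793. Whether the probe sets of Cxcl1 and Pik3cd share a signal was not tested. The 3 genes Ccr2, Cxcl1 and Pik3cd were picked after their values were seen, and no test was made.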
